A study of Mus musculus with 6 samples.

Results

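The SUN and nesprin genes encode the proteins that anchor the nucleus to the cytoskeleton. They are described here by every probe set on the array whose single gene symbol was Sun1, Sun2, Syne1, Syne2, Syne3, Tor1a, Tmem43 or Fhod1, which gave 16 probe sets of 8 genes among 34945 probe sets of 18193 genes with 1 symbol. RNA of neural stem cells of C57BL/6JRj mice was hybridised to 6 Affymetrix arrays. The young group held 3 samples from mice of 6 weeks and the old group 3 samples from mice of 9 months. No mutation, transgene or treatment is named for either group. The labels do not state how the cells were isolated or cultured, nor whether each replicate was its own animal or culture. The p-values therefore cover the spread among the arrays alone, and that spread could be technical. The series asks how age is divided between daughter cells of neural stem cells.

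SUN proteins span the inner nuclear membrane and bind the lamina with one end. Between the nuclear membranes their other end holds the tail of a KASH protein, or nesprin, which spans the outer membrane and reaches actin, intermediate filaments, kinesin or dynein. In neural progenitors this bridge moves the nucleus within the elongated cell as it goes through the cell cycle, and it moves the nuclei of migrating young neurons.

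Neither SUN gene passed the test between the ages, nor did Syne2, the only nesprin gene that entered it. Sun1, Sun2, Tor1a and Tmem43 were read well above background on all 6 arrays, and their old and young means lay within log2 0.35 of each other. Syne2, which encodes nesprin-2, had the widest difference, with an old mean 2.99-fold below the young mean, and a wide spread among the young arrays. Syne1 and Syne3, which encode nesprin-1 and nesprin-3, stayed under log2 4 on every array at every probe set. Values are log2 levels as deposited, of which 2.14 is the lowest on any array, and log2 4 stands in for background here.

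**Figure D1:**
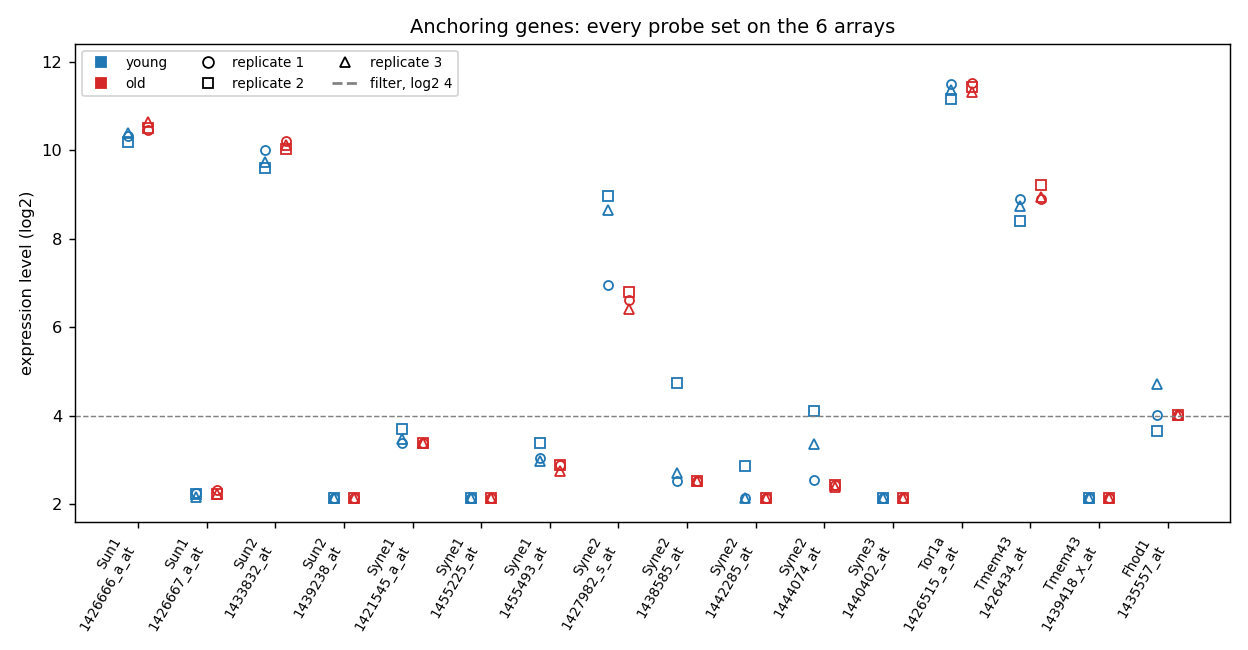
Log2 expression level (y axis) of each of the 16 probe sets (x axis) on the 3 young arrays (blue) and the 3 old arrays (red), with a marker shape for each replicate number and a dashed line at log2 4. Sun1, Sun2, Tor1a, Tmem43 and Syne2 each have 1 probe set above log2 6 on all 6 arrays, Fhod1 lies at about log2 4, and the other 10 probe sets lie mostly near the lowest value.

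The test was limma's moderated test of old against young, two-sided, on the 19858 probe sets that exceeded log2 4 on at least 3 of the 6 arrays, with Benjamini-Hochberg adjustment over all of them and a threshold of 0.05. By limma 0 of the 6 anchoring probe sets that entered the test passed, where 36.6% of all tested probe sets did, 20.1% with old higher and 16.5% with old lower. Unadjusted p-values were under 0.05 for 3 of them, against 47.5% of all, and at an adjusted p under 0.1 there were also 3, against 46.8%. The ages did not overlap at 3 of the 6, with old above young at 2 and below at 1. Over all tested probe sets the ages did not overlap at 55.3%, with old above at 29.4% and below at 25.9%. The median difference of the 6 was 0.165 (log2, old minus young) and that of all tested probe sets 0.0087. The median size of the difference, whatever its sign, was log2 0.285 for the 6 and 0.246 for all. The other 10 probe sets did not enter the test and are given by their values.

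**Figure D2:**
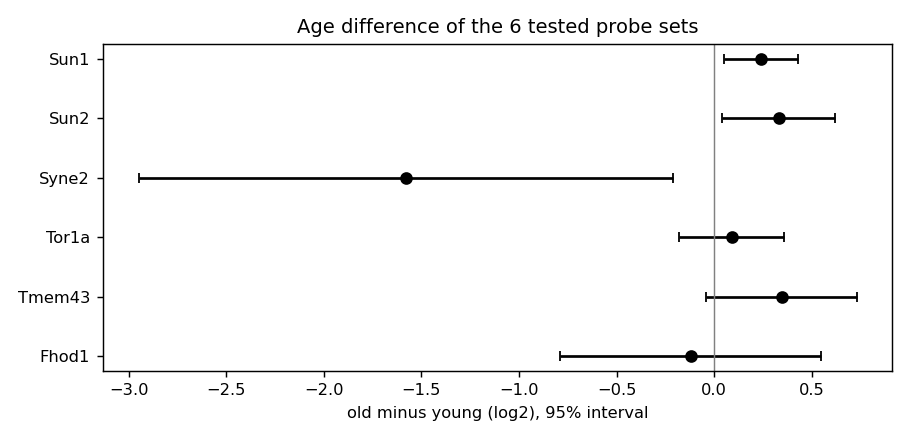
Difference between old and young means (x axis, log2, old minus young) of the 6 tested probe sets, each named by its gene (y axis), with bars for the 95% interval from limma (3 arrays per age). The intervals of Sun1, Sun2 and Syne2 leave out 0 before adjustment, and the interval of Syne2, from -2.95 to -0.21, is the widest.

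Of the 10 neural stem cell markers 9 lay above log2 4 on all young arrays and 8 on all old ones. Hes5 read 7.52 to 7.91 on young arrays and 2.14 to 2.73, under log2 4, on old ones. Nes fell (-0.46, limma adjusted p = 0.00746) and Msi1 rose (0.52, limma adjusted p = 0.00712), while Sox2, Vim, Slc1a3, Fabp7, Pax6 and Gfap did not pass. Of the 5 markers of oligodendrocyte progenitors 4 lay above it on all arrays, with sums of log2 14.15 to 14.25 on young and 14.20 to 14.30 on old arrays. Pdgfra and Cspg4 fell (-1.44 and -1.99, limma adjusted p = 0.00854 and 0.000184). The brighter Olig1 and Olig2 did not pass (0.04 and 0.09, limma adjusted p = 0.57 and 0.281), and Sox10 was at the lowest value on all 6 arrays. The 5 astrocyte markers summed to log2 14.47 to 14.54 on young and 14.96 to 15.05 on old arrays. Singly, S100b, Aqp4, Gja1 and Aldh1l1 rose (2.93, 2.71, 1.36 and 0.86, limma adjusted p = 0.000686, 0.013, 9.7e-05 and 0.0101). Aldoc, bright on all arrays, did not pass (-0.11, limma adjusted p = 0.189). The 6 neuron markers summed to log2 9.48 to 9.77 on young and 5.32 to 5.60 on old arrays, where 6 values at the lowest level sum to 4.72. The young sum is nearly that of Tubb3 alone, which read 9.30 to 9.62 on young and 3.46 to 4.06 on old arrays, and Rbfox3 and Stmn2 were at the lowest value on all 6. Snap25 read 4.38 to 5.26 on young arrays and 3.51 to 3.82, under log2 4, on old ones. Single markers of other cells also passed in limma. Lower in old were Flt1 of endothelial cells (-1.22), Acta2 of mural cells (-1.33) and Ccdc153 of the ependymal list (-1.69). Foxj1 of the ependymal list read 2.91 to 3.63 on young arrays, all under log2 4, and 5.36 to 6.30 on old ones. It entered the test through the old arrays alone, so its call as higher adds no support. Cldn5, Pecam1, Cdh5, Pdgfrb and Dnah5 were at the lowest value throughout. In the microglia list Aif1, Cx3cr1, Csf1r, Itgam and Tmem119, and in the muscle list all 6 markers, were at the lowest value on all arrays. The 18 hybridisation control probe sets averaged log2 12.92 to 13.46 on young and 12.20 to 12.39 on old arrays. The part of these differences in the results below was not tested, and a lower share of cells that express a gene cannot be told apart from less RNA of it per cell. Across tested probe sets, which are not independent replicates, young replicate 2 correlated with young replicates 1 and 3 at r = 0.979 and 0.986, and these 2 with each other at 0.993, so its values are named below.

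The SUN genes come first. Sun1 (1426666_a_at) read 10.32, 10.19 and 10.38 in young replicates 1 to 3 and 10.46, 10.51 and 10.63 in old replicates 1 to 3 (log2). All old arrays lay above all young arrays, but the gap between the nearest arrays was small. The means were 10.29 ± 0.093 in the young and 10.53 ± 0.090 in the old group (SD, n = 3), a difference of 0.24 (SE 0.075, 95% interval 0.05 to 0.43) or 1.18-fold, which did not pass (limma, adjusted p = 0.0571). The difference was close to what this probe set needed, since at its standard error a difference of log2 0.25 would have been called. The other Sun1 probe set, 1426667_a_at, lay between 2.17 and 2.32 on all arrays and gave no reading above background.

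Sun2 (1433832_at) read 10.00, 9.61 and 9.74 in young and 10.22, 10.02 and 10.11 in old replicates 1 to 3 (log2). The ages did not overlap here either, with young replicate 1 next to old replicate 2. The means were 9.78 ± 0.19 and 10.12 ± 0.10 (SD, n = 3), a difference of 0.33 (SE 0.12, 95% interval 0.04 to 0.62) or 1.26-fold, which did not pass (limma, adjusted p = 0.0741). Without young replicate 1, the young array nearest to the old ones, the difference was 0.44 and passed (limma, adjusted p = 0.0241). On leaving out any other array it was 0.25 to 0.38 and did not pass (limma, adjusted p = 0.11 to 0.189). The second Sun2 probe set, 1439238_at, did not exceed 2.15 on any array. Both SUN proteins can hold the same nesprins and stand in for each other in many tissues. In exact permutation tests over the 6 arrays (two-sided), Sun1 and Sun2 each gave p = 0.1, the smallest that 3 arrays against 3 allow.

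Among the nesprins Syne2 was the only gene with a probe set in the test. Nesprin-2 carries binding sites for actin at one end of its giant form and the KASH tail at the other, and recruits motors to the nucleus of neural progenitors. Its probe set 1427982_s_at read 6.95, 8.97 and 8.64 in young replicates 1 to 3 and 6.61, 6.80 and 6.41 in old replicates 1 to 3 (log2). The old arrays lay close together and under all young arrays, and young replicate 1 lay much nearer to the old arrays than to the other young ones. The means were 8.19 ± 1.1 in the young and 6.61 ± 0.19 in the old group (SD, n = 3), a difference of -1.58 (SE 0.55, 95% interval -2.95 to -0.21), which did not pass (limma, adjusted p = 0.0727, exact permutation p = 0.1). The residual SD of this probe set, log2 0.779, exceeded that of 98.0% of all tested probe sets, whose median was 0.12, and at its standard error a difference of 1.81 would have been needed for a call. Without young replicate 1 the difference was -2.20 and passed (limma, adjusted p = 0.00235), and without young replicate 2 it was -1.19 and did not pass. With limma's variance trend it passed at -1.58 (adjusted p = 0.0350), and with array weights at -1.51 (adjusted p = 0.0496). By the array's naming, a probe set that ends in _s_at can bind transcripts of more than 1 gene, although the annotation names Syne2 alone.

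The other 3 Syne2 probe sets were near background. The probe set 1438585_at read 2.53, 4.75 and 2.70 in young replicates 1 to 3 and 2.52 on each old array. At 1444074_at the young values were 2.56, 4.11 and 3.36 and the old values 2.44, 2.44 and 2.40. At 1442285_at young replicate 2 read 2.87 and the other 5 arrays 2.14. Above log2 4 there was thus only young replicate 2, at 2 of these 3 probe sets.

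**Figure D3:**
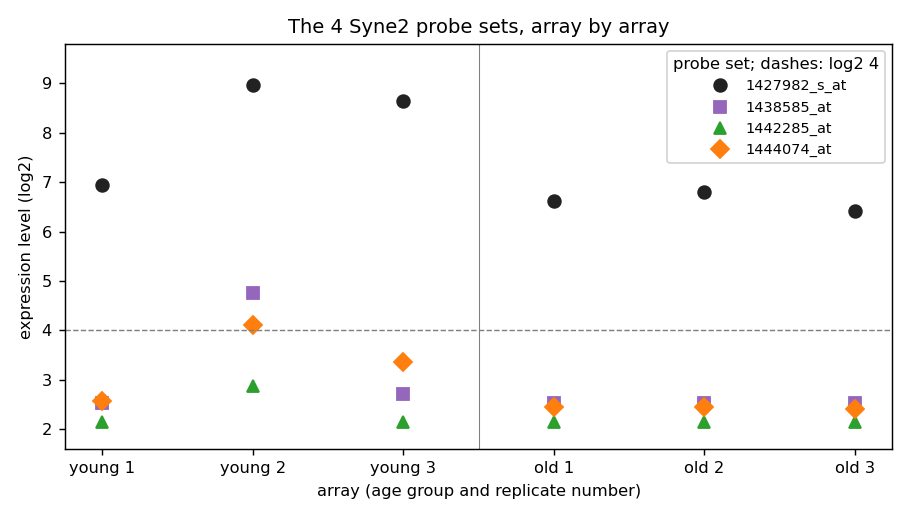
Log2 expression level (y axis) of the 4 Syne2 probe sets on each array (x axis, age and replicate number), with a dashed line at log2 4. The probe set 1427982_s_at lies at 8.97 and 8.64 in young replicates 2 and 3, at 6.95 in young replicate 1 and at 6.41 to 6.80 on the old arrays, while the other 3 exceed log2 4 in young replicate 2 only or not at all.

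Syne1 was not read above log2 4. Nesprin-1 is the close relative of nesprin-2 and anchors nuclei in muscle. Its probe set 1421545_a_at read 3.38, 3.70 and 3.48 in young replicates 1 to 3 and 3.38 on every old array, and 4 of the 6 arrays shared that value to within 0.005. At 1455493_at the young values were 3.06, 3.39 and 2.97 and the old values 2.88, 2.89 and 2.75. The third probe set, 1455225_at, was at 2.14 on all 6 arrays. Syne3, whose product nesprin-3 links the nucleus to intermediate filaments through plectin, has 1 probe set, 1440402_at, at 2.14 on all 6 arrays. Levels under log2 4 are not read as differences between arrays here, and they do not show that the transcripts are absent.

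The helper proteins of the bridge did not pass either. Tor1a encodes torsinA, an ATPase in the space between the nuclear membranes that acts on the SUN and nesprin pair. Its probe set 1426515_a_at read 11.50, 11.15 and 11.35 in young and 11.53, 11.43 and 11.32 in old replicates 1 to 3 (log2), and the ages overlapped. The means were 11.34 ± 0.18 and 11.43 ± 0.10 (SD, n = 3), a difference of 0.09 (SE 0.11, 95% interval -0.18 to 0.36, limma adjusted p = 0.546). The interval leaves out a change of log2 0.5 in either direction at this probe set.

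Tmem43 encodes LUMA, an inner nuclear membrane protein that binds emerin and lamins. Its probe set 1426434_at read 8.89, 8.40 and 8.73 in young and 8.89, 9.22 and 8.95 in old replicates 1 to 3 (log2). The ages overlapped, with young replicate 1 and old replicate 1 both at 8.89 after rounding. The means were 8.67 ± 0.25 and 9.02 ± 0.17 (SD, n = 3), a difference of 0.35 (SE 0.16, 95% interval -0.04 to 0.73, limma adjusted p = 0.137). A second probe set, 1439418_x_at, was at 2.14 on all arrays.

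Fhod1 encodes a formin that binds nesprin-2 and ties it to actin cables. Its probe set 1435557_at read 4.02, 3.67 and 4.72 in young replicates 1 to 3 and 4.02 on all old arrays (log2), with 4 of the 6 arrays within 0.005 of each other. It entered the test with these repeated values just above log2 4, and no level above background can be read from them. The difference was -0.12 (SE 0.27, 95% interval -0.79 to 0.55, limma adjusted p = 0.751). Without young replicate 2 the differences were 0.19 for Sun1, 0.25 for Sun2, 0.21 for Tmem43 and -0.0024 for Tor1a. In limma 0 of the 6 probe sets then passed, against 34.4% of all tested probe sets.

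**Figure D4:**
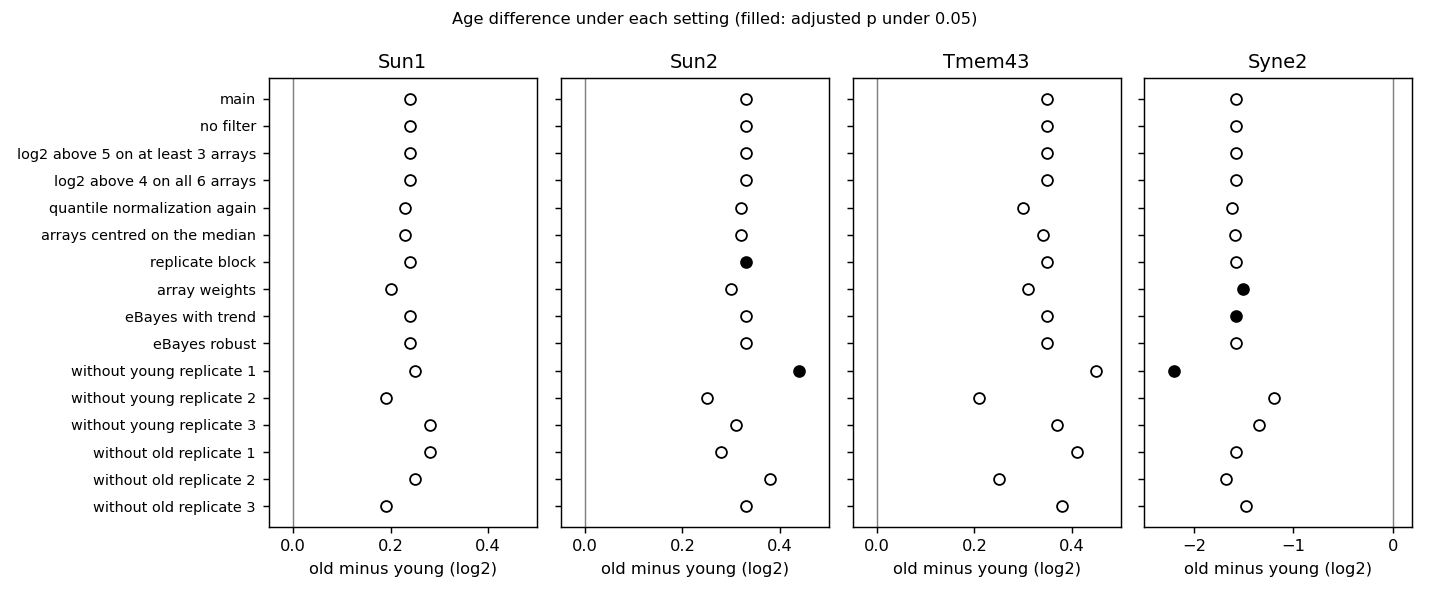
Difference between old and young means (x axis, log2, old minus young) of Sun1, Sun2, Tmem43 and Syne2 under the main setting and each alternative (y axis), with filled points at an adjusted p under 0.05. Sun2 is filled at 0.44 without young replicate 1 and at 0.33 with the replicate block, and Syne2 at -2.20, -1.58 and -1.51, while Sun1 and Tmem43 are open throughout.

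Promoters are shown so that the content of CG pairs, a feature of many promoters of widely expressed genes, can be read beside the levels. All 8 genes matched the RefSeq promoter table (GRCm38.p6), with 11 start sites in all. Windows are the 250 bases before the first start site, on the strand of the gene and from 5′ to 3′, with each CG pair in capitals. The 6 printed were picked after their counts were seen, Tor1a and Fhod1 among them because their counts do not follow their levels. These places come from RefSeq and not from the array. The windows are chr5:139200387-139200636 (plus strand) for Sun1, chr15:79742537-79742786 (minus strand) for Sun2, chr12:75818068-75818317 (plus strand) for Syne2, chr2:30967919-30968168 (minus strand) for Tor1a, chr8:105347971-105348220 (minus strand) for Fhod1 and chr12:104998678-104998927 (minus strand) for Syne3.
Sun1: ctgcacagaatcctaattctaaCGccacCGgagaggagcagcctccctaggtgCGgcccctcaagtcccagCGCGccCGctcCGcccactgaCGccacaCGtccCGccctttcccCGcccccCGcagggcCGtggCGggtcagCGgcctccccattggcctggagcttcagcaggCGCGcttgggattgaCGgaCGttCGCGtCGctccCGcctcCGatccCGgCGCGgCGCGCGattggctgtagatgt
Sun2: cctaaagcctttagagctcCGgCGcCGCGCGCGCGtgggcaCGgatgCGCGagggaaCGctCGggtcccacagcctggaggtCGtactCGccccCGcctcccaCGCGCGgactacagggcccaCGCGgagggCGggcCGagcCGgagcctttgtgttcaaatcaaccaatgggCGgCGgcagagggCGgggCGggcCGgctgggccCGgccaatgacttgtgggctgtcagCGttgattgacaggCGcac
Syne2: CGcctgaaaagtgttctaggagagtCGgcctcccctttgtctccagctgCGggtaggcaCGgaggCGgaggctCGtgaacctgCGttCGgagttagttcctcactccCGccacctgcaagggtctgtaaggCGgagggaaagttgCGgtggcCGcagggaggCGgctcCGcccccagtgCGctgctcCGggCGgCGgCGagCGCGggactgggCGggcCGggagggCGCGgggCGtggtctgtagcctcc
Tor1a: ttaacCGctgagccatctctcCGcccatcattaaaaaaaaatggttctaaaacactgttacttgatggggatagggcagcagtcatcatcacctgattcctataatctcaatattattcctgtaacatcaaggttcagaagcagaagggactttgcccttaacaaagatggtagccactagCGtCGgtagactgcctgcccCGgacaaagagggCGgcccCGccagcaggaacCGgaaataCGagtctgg
Fhod1: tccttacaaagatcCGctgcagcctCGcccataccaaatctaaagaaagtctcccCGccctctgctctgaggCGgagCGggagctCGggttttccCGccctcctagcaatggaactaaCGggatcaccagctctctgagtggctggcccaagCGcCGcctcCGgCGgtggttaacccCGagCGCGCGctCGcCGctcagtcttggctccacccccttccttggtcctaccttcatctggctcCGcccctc
Syne3: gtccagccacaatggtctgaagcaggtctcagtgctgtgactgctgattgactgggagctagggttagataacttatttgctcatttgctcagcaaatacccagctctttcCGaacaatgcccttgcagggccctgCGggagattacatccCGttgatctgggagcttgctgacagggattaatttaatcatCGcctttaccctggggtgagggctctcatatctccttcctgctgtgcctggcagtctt

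The Sun1 window holds 30 CG pairs, the Sun2 window 31 and the Syne2 window 26, whereas the Syne3 window holds 4. Of all 32851 windows of that length, 94.1% hold fewer than Sun1, 94.8% fewer than Sun2, 90.4% fewer than Syne2 and 37.8% fewer than Syne3. The first window holds 22 pairs for Tmem43, 19 for Fhod1, 9 for Tor1a and 7 for Syne1. The median over the first windows was 17 pairs for 8259 genes with a tested probe set (quartiles 11 and 24) and 5 for 6194 genes on the array without one (quartiles 2 and 12). Count and level did not go together in every member, since Tor1a was read above log2 11 on all arrays with 9 pairs, while Fhod1, at about log2 4, has 19. The GC box GGGCGG, searched on both strands, occurs 3 times in the Sun1 window, 4 times in the Sun2 window and 3 times in the Syne2 window. It also occurs 3 times in the first window of Fhod1, 2 times each for Tor1a and Syne1, 1 time for Tmem43 and 0 times for Syne3. Of all windows 32.7% hold it. CCAAT, on both strands, occurs 2 times each for Sun1 and Sun2 and in no first window of the other 6 genes, and 33.8% of all windows hold it. These matches are a description of the letters in the windows, and no binding or methylation was measured.

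The partners of the bridge were taken as a list of 49 genes by role, of which 46 have a probe set with 1 symbol and 36 entered the test, each by its brightest probe set. Of the 36, 3 rose and 9 fell, or 33.3%, while of all 10050 tested genes 22.0% rose and 18.5% fell, 40.6% together (limma, adjusted p under 0.05). Among the 9, Kif5c entered the test through its young arrays alone. Their median difference was -0.09 (log2), and that of all tested genes 0.012. The difference was below 0 for 23 of the 36, against 48.3% of all tested genes. The list was drawn up with earlier results of these arrays known, so the counts describe it and support nothing further.

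**Figure D5:**
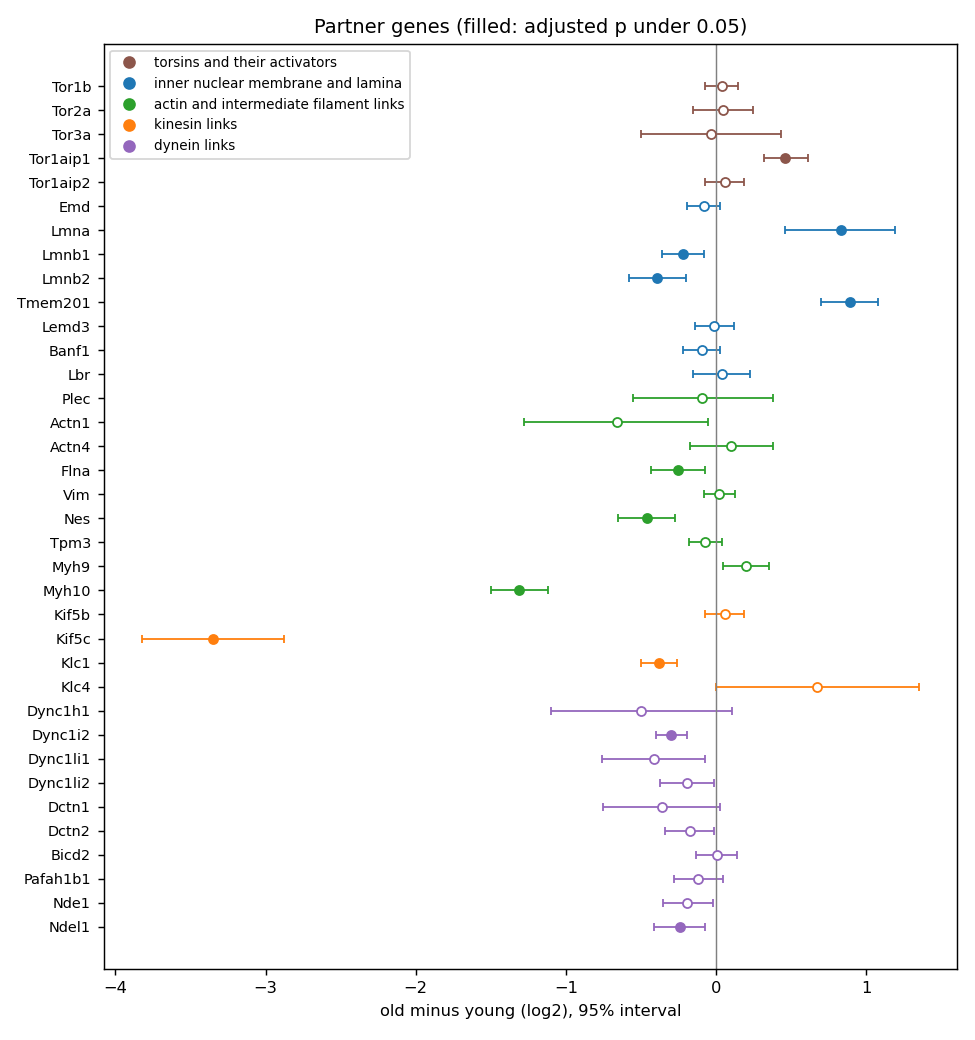
Difference between old and young means (x axis, log2, old minus young) of the 36 tested partner genes (y axis), coloured by role, with 95% intervals from limma (3 arrays per age) and filled points at an adjusted p under 0.05. Filled points lie above 0 for Tor1aip1, Lmna and Tmem201 only, and 9 lie below 0, of which Kif5c is the farthest at -3.35.

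No further SUN or KASH gene was read above background. The testis SUN genes Sun3 and Sun5 were at 2.14 on all 6 arrays and Spag4 at 2.18 to 2.49. Syne4, the nesprin that recruits kinesin in the inner ear, reached 2.71 at most, and Lrmp was at 2.14 throughout. The third gene of the KASH list, Kash5, was not analysed here.

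Among torsins and their activators 1 of 5 rose and none fell, where 22.0% of all tested genes rose and 18.5% fell. Tor1aip1, or LAP1, which switches on torsinA from the inner nuclear membrane, read 12.43, 12.37 and 12.27 in young and 12.81, 12.81 and 12.84 in old replicates 1 to 3 (log2). All old arrays lay above all young ones, with a difference of 0.46 (SE 0.058, limma adjusted p = 0.00313), and its other tested probe set passed as well (1.59-fold, adjusted p = 0.00472). Tor1aip2, or LULL1, the activator in the endoplasmic reticulum, had 0.06 (limma, adjusted p = 0.385) and the torsin Tor1b 0.04 (adjusted p = 0.525). Another Tor1b probe set, 1417819_at, passed as higher (0.20, limma adjusted p = 0.0376).

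In the inner nuclear membrane and lamina, where SUN proteins dock, 2 of 8 rose and 2 fell, against 22.0% and 18.5% of all tested genes. Tmem201, or SAMP1, which works with SUN proteins in moving nuclei, read 10.48, 10.28 and 10.25 in young and 11.20, 11.21 and 11.26 in old replicates (log2), a difference of 0.89 (limma, adjusted p = 0.000911), but its other tested probe set did not pass (1.03-fold, adjusted p = 0.621). Lmna, the A-type lamin, rose by 0.83 at its brightest probe set (limma, adjusted p = 0.00951). Its probe set 1425472_a_at rose by 1.50 (limma, adjusted p = 0.00192), and 1421654_a_at had 1.24 and did not pass (limma, adjusted p = 0.0582). The B-type lamins Lmnb1 and Lmnb2 fell by 0.22 and 0.39 on the log2 scale (limma, adjusted p = 0.0297 and 0.0126). Lmnb1's other tested probe set, 1423520_at, fell as well (1.44-fold, limma adjusted p = 0.0128). Emerin, or Emd, which binds both nesprins and lamins, had -0.08 (limma, adjusted p = 0.207).

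Of the links to actin and intermediate filaments 3 of 9 fell and none rose, against 18.5% and 22.0% of all tested genes. Myh10, the heavy chain of non-muscle myosin IIB, read 12.30, 12.43 and 12.44 in young and 11.15, 11.12 and 10.97 in old replicates 1 to 3 (log2). Every old array lay more than 1 log2 unit under every young array, and the difference was -1.31 (SE 0.074, limma adjusted p = 0.000253). The filament protein nestin (Nes) fell by 0.46 and filamin A (Flna) by 0.25 on the log2 scale (adjusted p = 0.00746 and 0.0469). Myh9, the heavy chain of myosin IIA, had 0.20 (limma, adjusted p = 0.0503) at its brightest probe set, while another passed as higher (1.50-fold, adjusted p = 0.00576). Actn1, an actin crosslinker, had -0.66 (limma, adjusted p = 0.0874).

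Kinesin and dynein are the motors that nesprins bring to the nucleus. Of 4 kinesin genes 2 fell, against 18.5% of all tested genes. Kif5c, a kinesin heavy chain of neurons, read 6.22, 5.93 and 5.72 in young and 2.84, 2.31 and 2.66 in old replicates 1 to 3 (log2). It lay under log2 4 on every old array and entered the test through the young arrays alone. Computed against that level, it fell at least 3.88-fold. Its call (limma, adjusted p = 0.000239) belongs to the difference of -3.35, which rests on old values under background, and adds no support to the fall. The light chain Klc1, which binds nesprins, fell by 0.38 on the log2 scale (adjusted p = 0.00326) by the brightest of 3 tested probe sets, and the remaining 2 did not pass. Kif5b, the widely expressed heavy chain, had 0.06 (limma, adjusted p = 0.388) with 6 tested probe sets, none of which passed, and Klc4 had 0.67 (adjusted p = 0.104).

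Of 10 dynein genes 2 fell and none rose, where 18.5% of all tested genes fell and 22.0% rose. A difference below 0 was found in 9 of the 10, against 48.3% of all tested genes. These genes are part of the list drawn up with earlier results known, so the counts only describe them. The intermediate chain Dync1i2 read 11.89, 11.85 and 11.85 in young and 11.57, 11.59 and 11.54 in old replicates 1 to 3 (log2), a difference of -0.30 (SE 0.043, limma adjusted p = 0.00509). Ndel1, which works with dynein in nuclear migration, fell by 0.24 on the log2 scale (limma, adjusted p = 0.0415). The light intermediate chain Dync1li1 had -0.41, Nde1 -0.19 and the dynactin subunit Dctn2 -0.17 (limma, adjusted p = 0.0649, 0.0795 and 0.0866). In 5 partner genes whose brightest probe set did not pass, another did, and they are named here after their values were seen. It was lower in old for Dctn1 (-0.32), Dync1li2 (-0.25) and Pafah1b1 (-0.19), and higher for Myh9 (0.58) and Tor1b (0.20). The calls of Lmnb1, at its brightest probe set, and of Flna were lost on leaving out any 1 array, and that of Ndel1 on leaving out any but young replicate 1, while the other 9 held without each array in turn. Kif5c is among the 9, but its old values lie under background, so that its call held adds no support.

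Genes whose profile over the 6 arrays came nearest to a member were found by the root mean square difference of log2 values, each centred on its own mean. For Sun1 these were Cflar (0.016) and Odr4 (0.024), where the median over 9715 named genes was 0.202. For Sun2 they were Htra2 (0.030) and Cnksr3 (0.040), with a median of 0.245. For Syne2 they were Insyn2a (0.39) and Col12a1 (0.45), with a median of 1.04. The values were not scaled, so this distance grows with a gene's range over the arrays. That range was log2 2.56 for Syne2, 0.44 for Sun1 and 0.61 for Sun2, and distances are not compared between members. For Tor1a they were Yme1l1 (0.029) and Fam53a (0.034), for Tmem43 Zfp758 and Tmem229b (0.059 each), and for Fhod1 Smg8 (0.043) and Samd1 (0.081). The Fhod1 values lie near background and repeat on 4 of the 6 arrays, so nothing is read from its nearest profiles. With 6 arrays and this many genes, near profiles turn up for almost any gene.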

How the data were processed

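The deposited log2 values, 1 per probe set and array, were made by the authors with GCRMA, per the submitters' processing notes. For its version and for the chip definition nothing is stated in the labels or files. GCRMA corrects background by probe sequence and normalizes between arrays, and it sets dim probe sets to almost one value, so replicate spread there is understated. That the scale is log2 was inferred from the range, which runs from 2.14 to 15.61. The 6 arrays limit the precision.

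Gene names came from the platform's own table, checked by Entrez identifier against RefSeq (GRCm38.p6), where 99.4% matched and 0 changed. Old and young arrays were compared with R 4.3.3 and its package limma 3.58.1 (functions lmFit and eBayes, no trend, 4 residual and 1.47 prior degrees of freedom) after 64 control probe sets were left out. The difference needed for a call is the smallest called moderated statistic times a probe set's standard error. The fit was tested on simulated data.

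The labels do not state whether equal replicate numbers pair the arrays, and the main fit used no block. Deviations from the group means correlated at -0.16, -0.11 and 0.16 for same-numbered arrays and at -0.22 to 0.25 for the others. With 3 arrays per age these values cannot exclude a pairing. Members and lists were chosen with earlier results of these data known. Every member could be named, every partner past the threshold, up to 3 others per role by smallest p, and the 2 nearest profiles of each tested member. Alternatives were other filters and scalings, the block, array weights, moderation options, thresholds, the mean of a gene's probe sets and leaving out each array. No member had more than 1 tested probe set, so none were compared within a gene.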

Additional observations from a re-analysis of the deposited data

How the results depend on the processing

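Of the 6 anchoring probe sets, limma called 0 under every filter, under both scalings and with the robust option. With no filter it called 0 of 16, against 11.1% of all probe sets. Under the other filters, the scalings and the robust option, 35.6% to 38.3% of all tested probe sets were called. It called 1 with the replicate block (Sun2, 0.33), where 28.2% of all tested probe sets were called. It called 1 with array weights and 1 with the variance trend (Syne2 in both), against 39.9% and 42.4% of all. At an adjusted p under 0.1 it called 3, against 46.8% of all. Leaving out each array gave 0 to 2 calls, against 25.2% to 34.4% of all tested probe sets. The 2 were Sun2 and Syne2 without young replicate 1, where 32.6% of all were called. Whether the replicate numbers pair the arrays is not known, and with the replicate block the partners had 3 genes higher and 6 lower. Sun1 ranged from 0.19 to 0.28, Sun2 from 0.25 to 0.44, Tmem43 from 0.21 to 0.45 and Syne2 from -2.20 to -1.19 (log2, old minus young) over the 15 alternatives, with no change of direction. On leaving out each array Tor1a ranged from -0.0024 (without young replicate 2) to 0.17 and Fhod1 from -0.35 to 0.18 (without young replicate 3), and the cause of these turns was not tested. Both scalings moved the median of all probe sets by about log2 0.01. Of the partners, 5 were lower at an adjusted p under 0.01 and 14 at one under 0.1, against 9 at the threshold used. Of all tested probe sets 19.0% passed in either direction at an adjusted p under 0.01 and 46.8% at one under 0.1. Leaving out each array gave 9 to 14 called partners, of which 3 to 4 higher and 6 to 10 lower. Probe sets near the lowest value, Fhod1 and the untested members among them, allow no statement on a change.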
